A study of Mus musculus with 6 samples.

Results

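The genes described here are 10 that encode secreted or cell-surface products of neurons and are usually listed in the slower, delayed arm of the response to synaptic activity: Vgf, Scg2, Pcsk1, Crh, Nptx1, Nptx2, Nrn1, Inhba, Stc1 and Plat. They were chosen by name, with earlier results of these data known. Their rows are those of the deposited count table whose symbol matched, and each matched 1 of the 38293 rows. RNA was sequenced from mouse primary cortical neurons in 3 NMDA-stimulated and 3 untreated control libraries, all of wild-type genotype. The neurons came from Swiss-Webster embryos of embryonic day 16 and were used at day 13 in vitro. NMDA cultures received 50 µM NMDA, an agonist of one class of glutamate receptor, for 10 minutes and recovered without drug for 50 minutes, and control cultures are labelled with no treatment. The shared growth text mentions etoposide, but no library here is labelled with it. The question addressed is how these transcripts stand 1 hour after the start of a brief NMDA stimulus.

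Neurons release slow signals in addition to fast transmitters. Dense-core vesicles store granins and prohormones that convertases cut into active peptides, and these peptides leave the cell when calcium enters during activity. Other products act in the extracellular space at the synapse: neuronal pentraxins gather AMPA-type glutamate receptors, activin signals through receptor kinases to SMAD proteins, and tissue plasminogen activator cuts matrix and growth factor precursors. The genes of several of these products carry a cyclic AMP response element (CRE), the DNA motif bound by the activity-regulated factor CREB.

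Sequences around the gene start were available for 3 of the 10 members, Scg2, Inhba and Pcsk1, and the CRE can be seen in those of Scg2 and Pcsk1. The windows, from RefSeq on GRCm38.p6, run from 250 bases before to 50 bases after each gene's start. The full CRE, TGACGTCA, was searched on both strands. It occurred once in the window of Scg2 and once in that of Pcsk1, with its first base at position -68 and at position -78 from the RefSeq start. Of 32851 such windows in the mouse genome, 588 (1.79%) hold it. These stretches of 30 bases on the genes' own strands, with the CRE in capitals, are shown because they are the activity-linked motif that 2 of the members share:
Scg2, chr1:79440076-79440105, minus strand: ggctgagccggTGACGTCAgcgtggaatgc
Pcsk1, chr13:75089768-75089797, plus strand: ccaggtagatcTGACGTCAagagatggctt
The window of Pcsk1 held another copy of the core TGACG at position -50, a core present in 20.8% of windows and contained in the full CRE. The window of Inhba held neither TGACGTCA nor TGACG. No AP-1 site (TGANTCA), CArG box or EGR site (GCGNGGGCG) was found in the 3 windows, against 7.81%, 1.63% and 5.55% of all windows. A match is a string of letters and does not show that a factor binds there. The gene spans given below come from GENCODE M21, whose starts can differ from the RefSeq starts used here. By those spans the Scg2 stretch lies inside the gene.

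Totals of counted reads ranged from 15417234 to 18606264 in NMDA libraries and from 17860691 to 19183999 in control libraries. The stimulus was visible in the immediate early gene Fos, at 105, 144 and 98.5 CPM (reads of the gene as a share of the library, scaled to a common depth) in NMDA replicates 1, 2 and 3, against 3.79, 2.67 and 3.43 CPM in control replicates 1, 2 and 3 (edgeR adjusted p = 3.23e-06). Markers of neurons were high in all libraries, summing to 4140 to 4782 CPM over 5 general neuron markers in NMDA libraries and 4350 to 4857 CPM in control libraries. The 8 astrocyte markers summed to 2333 to 3562 CPM in NMDA libraries and 2160 to 2831 CPM in control libraries. The 6 microglia markers summed to 3.82 to 4.16 CPM in NMDA libraries and 3.17 to 4.61 CPM in control libraries. The 5 endothelial markers summed to 13.95 to 23.85 CPM in NMDA libraries and 12.3 to 17.96 CPM in control libraries. Of these endothelial markers Cldn5 had no read in any library, and the others had reads in every library. In such bulk samples, fewer cells of a type and less RNA per cell cannot be told apart. The extraction text speaks of 2 biological replicates while 3 libraries are listed in each group, so how many independent cultures stand behind each n of 3 is not known. SDs, SEs and p-values therefore reflect library-to-library spread that may in part be technical.

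None of the 9 members that could be tested passed the test between NMDA and control libraries when the libraries were treated as unpaired, and the 10th, Crh, had too few reads to test. Paired by replicate number, Nptx2 and Vgf were higher after NMDA, by 1.66-fold and 1.45-fold, and no member was lower. A rise was thus called for 2 of the 9 tested members in the paired comparison at this time point and for none in the unpaired one. With 3 libraries per group, missing the threshold does not show that a gene was unchanged. In the unpaired edgeR quasi-likelihood test, 0 of 9 members passed a Benjamini-Hochberg adjusted p of 0.05 over all 14642 genes tested, beside 0.43% of all genes (0.376% higher, 0.0546% lower). At an unadjusted p under 0.05 edgeR found 1 member, DESeq2 found 2 and limma-voom found 1, beside 13.7%, 12.4% and 13.9% of all genes, and each tool called 0 after adjustment. With the replicate number as a block, 2 of 9 passed, both higher, beside 5.65% of all genes higher and 8.35% lower. With offsets for GC content and transcript length added to the block, 1133 of all genes were higher and 942 lower, against 828 higher and 1223 lower with the block alone. Of the 9 members 3 were higher in all 3 pairs (Vgf, Nptx2 and Plat), beside 22.5% of all genes, and 1 was lower in all 3 (Stc1), beside 25.7%. The median log2 fold change of the 9 members was 0.23, against -0.0054 over all genes tested.

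**Figure D1:**
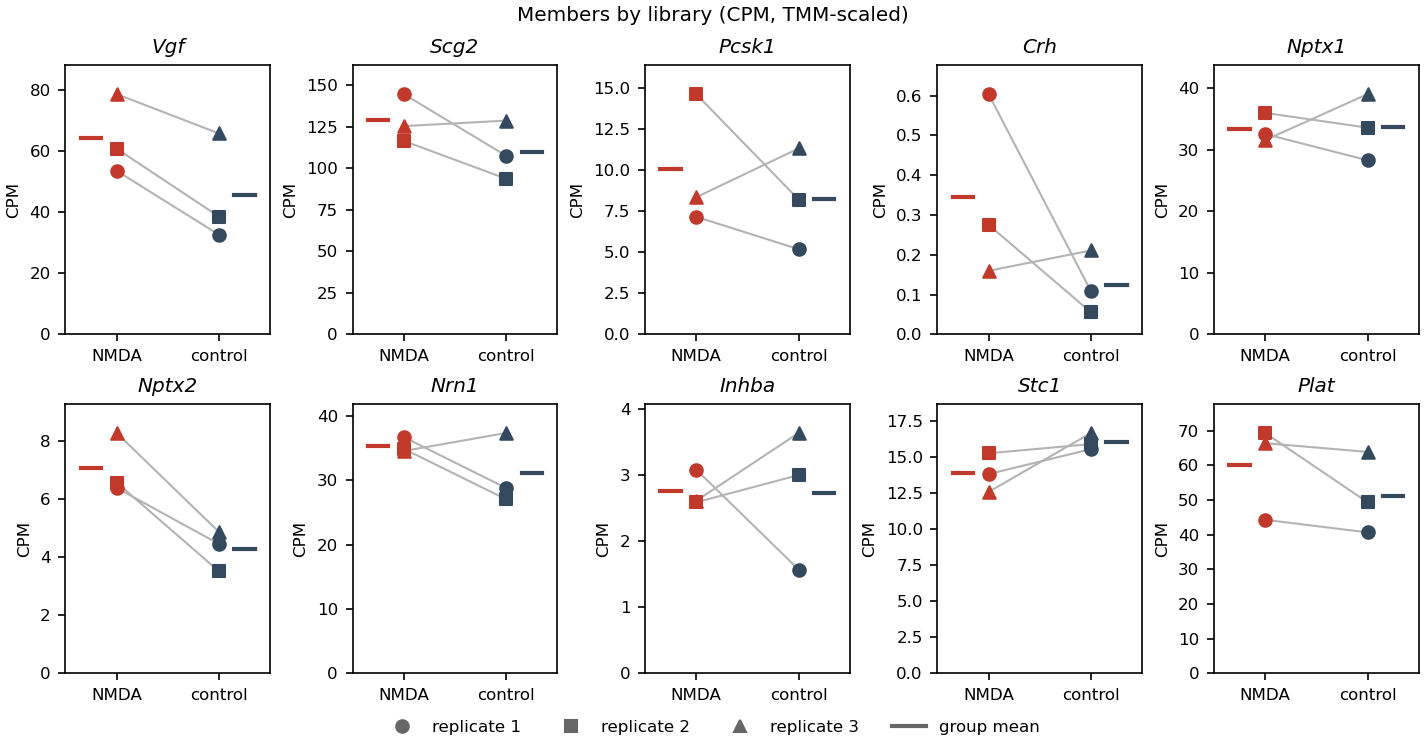
Expression of the 10 genes in each library, in CPM on a linear axis from 0, with NMDA on the left and control on the right of each panel; symbols mark replicate numbers, grey lines join libraries of the same number and bars give group means. The 3 lines of Vgf and of Nptx2 all slope the same way, with NMDA higher, as do those of Plat, while all 3 lines of Stc1 have NMDA lower and those of the other genes differ in slope.

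Vgf encodes a granin-like precursor that is cut into several secreted peptides. It lies on chromosome 5 from 137026392 to 137033351 (GRCm38, plus strand, ENSMUSG00000037428). It stood at 53.5, 60.8 and 78.6 CPM in NMDA replicates 1, 2 and 3, against 32.6, 38.5 and 65.7 CPM in control replicates 1, 2 and 3. Each NMDA library exceeded the control of its number, yet the groups overlapped, since control replicate 3 lay above NMDA replicates 1 and 2. Unpaired, the log2 fold change was 0.50 ± 0.26 (SE, n = 3 per group; edgeR adjusted p = 0.45). With the block it was 0.53 ± 0.09 (edgeR adjusted p = 0.000426), and the differences within pairs 1, 2 and 3 were 0.71, 0.66 and 0.26. The Vgf transcript is 64.1% GC, above 99.5% of the tested genes with a known sequence. With GC and length offsets and the block, Vgf stood at 0.48 ± 0.09 (edgeR adjusted p = 0.00296).

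Scg2 encodes secretogranin II, a granin of dense-core vesicles and the precursor of secretoneurin. The gene spans 79434669 to 79440120 on chromosome 1 (minus strand, ENSMUSG00000050711). It was the most abundant of the 10 per length, at 51.2 ± 5.72 RPKM (CPM divided by exon length in kilobases) in NMDA and 43.7 ± 7.01 RPKM in control libraries (SD, n = 3 each). It stood at 145, 116 and 125 CPM in NMDA replicates 1, 2 and 3, against 107, 93.7 and 129 CPM in control replicates 1, 2 and 3. NMDA replicates 1 and 2 exceeded their controls and replicate 3 did not. The log2 fold change was 0.23 ± 0.13 unpaired and 0.23 ± 0.08 with the block (edgeR adjusted p = 0.458 and 0.0708), so Scg2 did not pass in either fit.

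Pcsk1 encodes prohormone convertase 1, which cuts granins and peptide precursors in maturing vesicles. The gene spans 75089826 to 75134861 on chromosome 13 (plus strand, ENSMUSG00000021587). It stood at 7.18, 14.7 and 8.37 CPM in NMDA replicates 1, 2 and 3, against 5.20, 8.23 and 11.3 CPM in control replicates 1, 2 and 3. NMDA replicate 2 was the highest of the 6 libraries and control replicate 3 the next, and the groups overlapped over most of their range. The log2 fold change was 0.29 ± 0.33 (edgeR adjusted p = 0.742), with a 95% interval of -0.47 to 1.04 that also holds a 2-fold rise. Scg2 and Pcsk1, whose windows hold the CRE shown above, did not pass with or without the block.

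Crh encodes corticotropin-releasing hormone, a stress peptide made in cortex by a subset of interneurons. The gene spans 19693401 to 19695396 on chromosome 3 (minus strand, ENSMUSG00000049796). Its counts were 9, 5 and 3 reads in NMDA replicates 1, 2 and 3, against 2, 1 and 4 reads in control replicates 1, 2 and 3. The groups overlapped, and the gene was removed by the filter on low counts. Without that filter its log2 fold change was 1.37 ± 0.80 (edgeR adjusted p = 0.604), and no difference was detectable at this depth.

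Of the 2 neuronal pentraxins, secreted proteins that bind AMPA receptors at synapses, Nptx2 passed with the block and Nptx1 passed in neither fit. Nptx2, also known as Narp, stood at 6.37, 6.56 and 8.26 CPM in NMDA replicates 1, 2 and 3, against 4.44, 3.50 and 4.85 CPM in control replicates 1, 2 and 3. All 3 NMDA libraries lay above all 3 controls, as they did for 8.18% of all genes tested. The log2 fold change of Nptx2 was 0.73 ± 0.19 unpaired (edgeR adjusted p = 0.172) and 0.73 ± 0.15 with the block (edgeR adjusted p = 0.00308), with 0.51, 0.89 and 0.76 in pairs 1, 2 and 3. With GC and length offsets and the block it was 0.71 ± 0.15 (edgeR adjusted p = 0.00427), the Nptx2 transcript being 58.3% GC. Nptx1 stood at 32.6, 36.0 and 31.6 CPM in NMDA replicates 1, 2 and 3, against 28.3, 33.6 and 39.1 CPM in control replicates 1, 2 and 3. The Nptx1 groups overlapped fully, and its log2 fold change was -0.01 ± 0.13 with a 95% interval of -0.30 to 0.27 (edgeR adjusted p = 0.979).

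The difference between the pentraxins was tested on their ratio within each library, where library size cancels. The log2 ratio of Nptx2 to Nptx1 counts was -2.35, -2.45 and -1.93 in NMDA replicates 1, 2 and 3, against -2.67, -3.25 and -3.0 in control replicates 1, 2 and 3. Every NMDA library lay above every control. The mean difference was 0.73 (two-sided exact permutation p = 0.1, the smallest that 3 against 3 libraries can give; 0.4 adjusted over 4 ratios). Nptx2 lies on chromosome 5 from 144545902 to 144557478 (plus strand, ENSMUSG00000059991) and Nptx1 on chromosome 11 from 119538719 to 119547753 (minus strand, ENSMUSG00000025582). Per length, Nptx1 was the more abundant pentraxin, at 6.40 ± 0.445 RPKM against 2.78 ± 0.411 RPKM for Nptx2 in NMDA libraries, and 6.46 ± 1.03 against 1.68 ± 0.273 RPKM in control libraries (SD, n = 3 each).

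Nrn1 encodes neuritin, a small protein anchored to the surface of axons and dendrites that promotes neurite and synapse growth. The gene spans 36725361 to 36735131 on chromosome 13 (minus strand, ENSMUSG00000039114). It stood at 36.8, 34.9 and 34.6 CPM in NMDA replicates 1, 2 and 3, against 28.8, 27.1 and 37.4 CPM in control replicates 1, 2 and 3. The NMDA libraries lay close together, above control replicates 1 and 2 and below control replicate 3. The log2 fold change was 0.19 ± 0.13 unpaired and 0.20 ± 0.10 with the block (edgeR adjusted p = 0.554 and 0.188). Its exons overlap those of Fars2 on the opposite strand over 501 bases, and while the library kit keeps strand, the strand setting of the counting was not stated. Fars2 itself stood at 8.64 ± 0.729 CPM in NMDA and 7.77 ± 0.971 CPM in control libraries (SD, n = 3 each).

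Inhba encodes the inhibin beta A chain, which pairs with itself to form activin A. The gene spans 16011851 to 16031621 on chromosome 13 (plus strand, ENSMUSG00000041324). It stood at 3.09, 2.59 and 2.61 CPM in NMDA replicates 1, 2 and 3, against 1.57, 3.0 and 3.64 CPM in control replicates 1, 2 and 3. Control replicate 1 was the lowest library and control replicate 3 the highest, with the NMDA libraries between them. The log2 fold change was 0.01 ± 0.31 (edgeR adjusted p = 0.994), with a 95% interval of -0.68 to 0.69. The log2 ratio of Inhba to its relative Inhbb differed by -0.02 between the groups (two-sided exact permutation p = 1).

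Stc1 encodes stanniocalcin 1, a secreted glycoprotein that regulates calcium and phosphate handling. The gene spans 69029238 to 69041804 on chromosome 14 (plus strand, ENSMUSG00000014813). It was the one member with every NMDA library below its control. It stood at 13.8, 15.3 and 12.6 CPM in NMDA replicates 1, 2 and 3, against 15.5, 15.9 and 16.7 CPM in control replicates 1, 2 and 3. The groups did not overlap, as held in either direction for 19.3% of all genes, but the log2 fold change of -0.21 ± 0.12 did not pass unpaired or with the block (edgeR adjusted p = 0.484 and 0.202). Its exons overlap those of an antisense gene over 229 bases. The log2 ratio of Stc1 to Stc2 differed by -0.19 between the groups (two-sided exact permutation p = 0.4).

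Plat encodes tissue plasminogen activator, a secreted protease released by neurons and glia. The gene spans 22757727 to 22782844 on chromosome 8 (plus strand, ENSMUSG00000031538). It stood at 44.3, 69.3 and 66.3 CPM in NMDA replicates 1, 2 and 3, against 40.6, 49.3 and 63.8 CPM in control replicates 1, 2 and 3. Replicate 1 was the lowest of its group on each side, and each NMDA library exceeded its control. The log2 fold change was 0.23 ± 0.20 unpaired (edgeR adjusted p = 0.652) and 0.22 ± 0.08 with the block (edgeR adjusted p = 0.0839). It passed the threshold with GC and length offsets added to the block (0.25 ± 0.08, edgeR adjusted p = 0.0471, beside 7.82% of all genes higher). It also passed with the block but without replicate 1 (0.28 ± 0.09, edgeR adjusted p = 0.0256, beside 9.14%). It did not pass with the block in DESeq2 (0.23 ± 0.12, adjusted p = 0.248). Nor did Plat pass with the block and DESeq2 size factors, or with the block and without replicate 2.

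**Figure D2:**
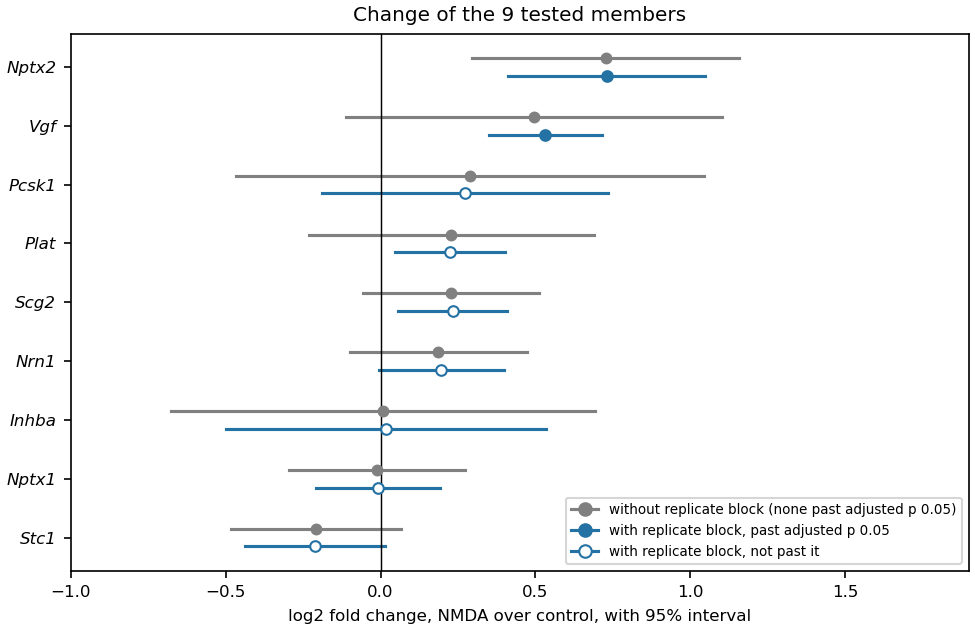
Log2 fold change of the 9 tested members, NMDA over control, with unadjusted 95% intervals; grey points come from the fit without the replicate block, blue points from the fit with it, filled where the adjusted p was under 0.05. Nptx2 (0.73) and Vgf (0.50 without and 0.53 with the block) lie farthest to the right, and the intervals of all 9 members are narrower with the block.

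Per length the mean levels of the members had the same order in both groups: Scg2, Vgf, Nrn1, Plat, Nptx1, Stc1, Nptx2, Pcsk1, Inhba and Crh. In NMDA libraries Vgf stood at 21.6 ± 4.34 RPKM, Nrn1 at 15.7 ± 0.518 RPKM, Plat at 9.61 ± 2.19 RPKM and Stc1 at 3.31 ± 0.320 RPKM (SD, n = 3). In control libraries Vgf stood at 15.3 ± 5.94 RPKM, Nrn1 at 13.8 ± 2.46 RPKM, Plat at 8.21 ± 1.88 RPKM and Stc1 at 3.82 ± 0.137 RPKM. Pcsk1 stood at 1.80 ± 0.717 RPKM in NMDA and 1.47 ± 0.548 RPKM in control libraries, and Inhba at 0.432 ± 0.0438 RPKM in NMDA and 0.428 ± 0.166 RPKM in control libraries. Crh was the lowest, at 0.262 ± 0.174 RPKM in NMDA and 0.0947 ± 0.0599 RPKM in control libraries. Some neighbours in this order differed by less than the sum of their SDs: Stc1 and Nptx2, Nptx2 and Pcsk1, and Inhba and Crh in NMDA libraries, and Vgf and Nrn1, Plat and Nptx1, and Nptx2 and Pcsk1 in control libraries.

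Among the controls, replicate 3 had the highest scaled level of all 9 tested members, whereas it was the highest control for 36.1% of all genes tested. This was noticed after the values were seen, and its part in the results was not tested. Its deviation from the control mean in log2 CPM ranged from 0.06 for Stc1 to 0.59 for Vgf. Among NMDA libraries no replicate stood out, replicates 1, 2 and 3 being highest for 3, 4 and 2 members. Without control replicate 3, 4 of 9 members had an unadjusted p under 0.05 in the unpaired fit, beside 15.8% of all genes, and 0 passed after adjustment. Since that library was the highest control of every tested member, leaving it out lowered the control mean of each, and the counts without it, alone or with NMDA replicate 3, are a description that supports no direction. With the block and without both libraries of replicate 3, a fit with 1 residual degree of freedom among libraries, 6 of 9 members passed as higher (Nptx2, Vgf, Pcsk1, Scg2, Nrn1 and Plat), beside 4.78% of all genes. In that fit the log2 fold change was 0.69 ± 0.17 for Pcsk1, 0.39 ± 0.09 for Scg2, 0.37 ± 0.11 for Nrn1 and 0.33 ± 0.10 for Plat. Vgf and Nptx2 passed whichever replicate number was left out of the blocked fit.

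**Figure D3:**
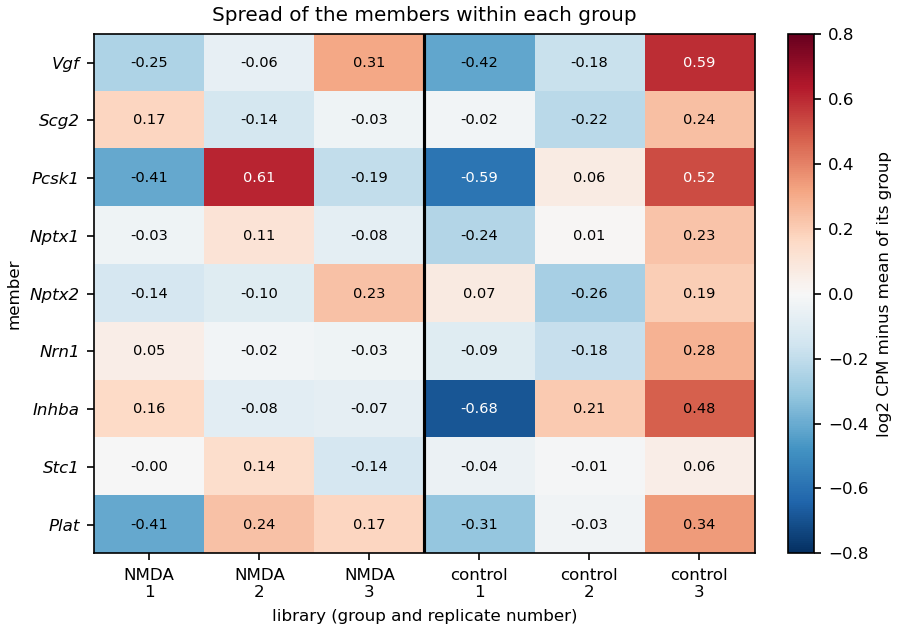
Log2 CPM of each tested member minus the mean of its own group, by library, with NMDA libraries left of the black line and control libraries right of it; red is above the group mean and blue below. The column of control replicate 3 is above the mean for all 9 members, from 0.06 to 0.59.

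The members' partners were described through 73 companion genes in 7 lists, of which 64 could be tested. Unpaired, edgeR called 0 of them (14 at an unadjusted p under 0.05, beside 13.7% of all genes), limma-voom 0 and DESeq2 1, Smad7. With the block 11 were higher and 4 lower, of 64 tested, beside 5.65% and 8.35% of all genes. The count of lower companion genes was thus near the share over all genes. The median log2 fold change of the 64 was 0.10 unpaired. Of these 15, 4 passed in every other blocked fit as well (Chga, Chgb, Pcsk1n and Smad7) and 11 missed the threshold in at least 1. The block in DESeq2 lost Anxa2, Bambi, Fstl1, Lrp8 and Sst, and GC and length offsets lost Lrp8. The block without replicate 2 lost Anxa2, Cpe, Fstl1, Gria4, Lrp8, Ptprn, Serpine2 and Sst, and without replicate 3 it lost Acvr2a, Bambi, Cck, Lrp8, Ptprn, Serpine2 and Sst. The genes called with the block are named here after their values were seen, in addition to those fixed by rule.

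Of 13 genes for granins and prohormone processing, 4 were higher and 1 lower with the block, beside 5.65% and 8.35% of all genes. Chga and Chgb, the chromogranins that share dense-core vesicles with Scg2 and Vgf, rose by 0.35 ± 0.07 and 0.37 ± 0.09 (edgeR adjusted p = 0.00238 and 0.00683). Chga stood at 78.6, 73.4 and 82.3 CPM in NMDA replicates 1, 2 and 3, against 58.8, 57.3 and 67.9 CPM in control replicates 1, 2 and 3. The Chga groups did not overlap, as held with NMDA higher for 8.18% of all genes. Pcsk1n, which encodes proSAAS, an inhibitor of the convertase made from Pcsk1, rose by 0.40 ± 0.09, and Cpe, the carboxypeptidase that trims peptides after the convertases, by 0.32 ± 0.08 (edgeR adjusted p = 0.00589 and 0.0138). Ptprn, a membrane protein of dense-core vesicles, fell by 0.29 (SE 0.07, edgeR adjusted p = 0.0106). Pcsk2, the other neuronal convertase, stood at -0.05 ± 0.07 and did not pass. The log2 ratio of Pcsk1 to Pcsk2 differed by 0.34 between the groups (two-sided exact permutation p = 0.6).

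Of 14 neuropeptide precursor genes, 13 were tested and 2 were higher with the block, beside 5.65% of all genes. They were Cck, cholecystokinin (0.33 ± 0.08), and Sst, somatostatin of interneurons (0.27 ± 0.07), with edgeR adjusted p = 0.00661 and 0.0224. Cck stood at 67.7, 57.1 and 66.8 CPM in NMDA replicates 1, 2 and 3, against 53.6, 50.8 and 47.8 CPM in control replicates 1, 2 and 3. Nmb, neuromedin B, had a larger fitted change, 0.77 ± 0.26 with the block, at 2.19 ± 0.228 CPM in NMDA and 1.28 ± 0.266 CPM in control libraries (SD, n = 3 each), and did not pass (edgeR adjusted p = 0.0539). The median of this list was 0.32 unpaired. Of the 7 interneuron markers none was called with or without the block, with sums of 620 to 664 CPM in NMDA and 574 to 637 CPM in control libraries. Among these markers Gad1 came closest, at 0.22 ± 0.08 with the block (edgeR adjusted p = 0.0582), while Dlx1 and Erbb4 stood at -0.04 and -0.03.

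Of 12 pentraxin and AMPA receptor partners, 1 was lower with the block and none higher, beside 8.35% of all genes lower and 5.65% higher. The count of lower genes was thus near the share over all genes. It was Gria4, an AMPA receptor subunit that NPTX2 is known to gather on interneurons, at 106, 98.4 and 91.8 CPM in NMDA replicates 1, 2 and 3, against 130, 119 and 118 CPM in control replicates 1, 2 and 3. Its log2 fold change was -0.31 ± 0.07 (edgeR adjusted p = 0.00558), opposite in sign to that of Nptx2. Gria2 stood at -0.24 ± 0.09 with the block (edgeR adjusted p = 0.0607) and at -0.03 ± 0.07 with GC and length offsets added (edgeR adjusted p = 0.86). It passed with the block only without replicate 1 (-0.33 ± 0.08, edgeR adjusted p = 0.00245). Nptxr, the membrane-bound pentraxin receptor, stood at 0.15 ± 0.07 with the block (edgeR adjusted p = 0.2) and did not pass.

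In the activin pathway 13 of 14 genes were tested. With the block 3 were higher and 1 lower, beside 5.65% and 8.35% of all genes. Smad7, an inhibitory SMAD that is itself a target of activin and TGF-beta signalling, stood at 8.99, 12.3 and 10.1 CPM in NMDA replicates 1, 2 and 3, against 6.12, 6.34 and 5.64 CPM in control replicates 1, 2 and 3. The Smad7 groups did not overlap, as held with NMDA higher for 8.18% of all genes. Smad7 rose by 0.79 ± 0.13 with the block (edgeR adjusted p = 0.000526, and 0.0971 unpaired). Bambi, a decoy receptor of the same pathway, rose by 0.57 ± 0.14 and Fstl1, a follistatin-like secreted protein, by 0.26 ± 0.08 (edgeR adjusted p = 0.00879 and 0.0472). Acvr2a, a type II activin receptor, fell by 0.37 (SE 0.08, edgeR adjusted p = 0.00476). The ligand gene Inhba and the transducers Smad2, Smad3 and Smad4 did not pass.

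In the plasminogen activator system 9 of 12 genes were tested. With the block 2 were higher and 1 lower, beside 5.65% and 8.35% of all genes. Serpine2, which encodes protease nexin 1, an inhibitor of tissue plasminogen activator and thrombin, rose by 0.29 ± 0.07, and Anxa2, a surface receptor for plasminogen activation, by 0.34 ± 0.09 (edgeR adjusted p = 0.0112 and 0.0148). Lrp8, a reelin receptor, fell by 0.25 (SE 0.07, edgeR adjusted p = 0.0276). The Lrp8 call was lost with the block in DESeq2 (adjusted p = 0.0643), with GC and length offsets (edgeR adjusted p = 0.0559) and without replicate 2 or replicate 3 (edgeR adjusted p = 0.153 and 0.213). Of the CRH system 3 of 6 genes were tested and none passed in either fit, with the receptor gene Crhr1 at -0.33 ± 0.14 and Crhr2 at 0.16 ± 0.33 with the block (edgeR adjusted p = 0.132 and 0.791). Of the paralogues, Nrn1l had no read in any library and Stc2 stood at -0.03 ± 0.16 (edgeR adjusted p = 0.926).

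In the blocked fit 7 of the 8 astrocyte markers were higher as well, Gfap, Aqp4, Aldh1l1, Slc1a3, Aldoc, Sox9 and Gja1, all but Slc1a2. Of all genes in that fit 5.65% were higher and 8.35% lower. Of the neuron markers, 2 of 5 general ones (Rbfox3 and Tubb3), 2 of 7 excitatory ones (Neurod2 and Emx1) and 0 of 7 inhibitory ones were higher, and none was lower. Of 5 fibroblast and mural markers Acta2 was higher (0.56 ± 0.12, edgeR adjusted p = 0.00916). Col1a1 (-0.21), Dcn (-0.18), Pdgfrb (0.23) and Col1a2 (0.49) did not pass. The list sums were 88.3 to 148 CPM in NMDA and 73.9 to 101 CPM in control libraries. Most of each sum was Acta2, at 58.1, 117 and 64.9 CPM in NMDA replicates 1, 2 and 3, against 43.6, 59.8 and 54.2 CPM in control replicates 1, 2 and 3. Of 6 oligodendrocyte markers Mog was lower (-0.65 ± 0.21, edgeR adjusted p = 0.0397), with list sums of 198 to 312 CPM in NMDA and 162 to 348 CPM in control libraries. The part of RNA from these other cell types in the rises of Vgf, Nptx2 and the companion genes was not tested.

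**Figure D4:**
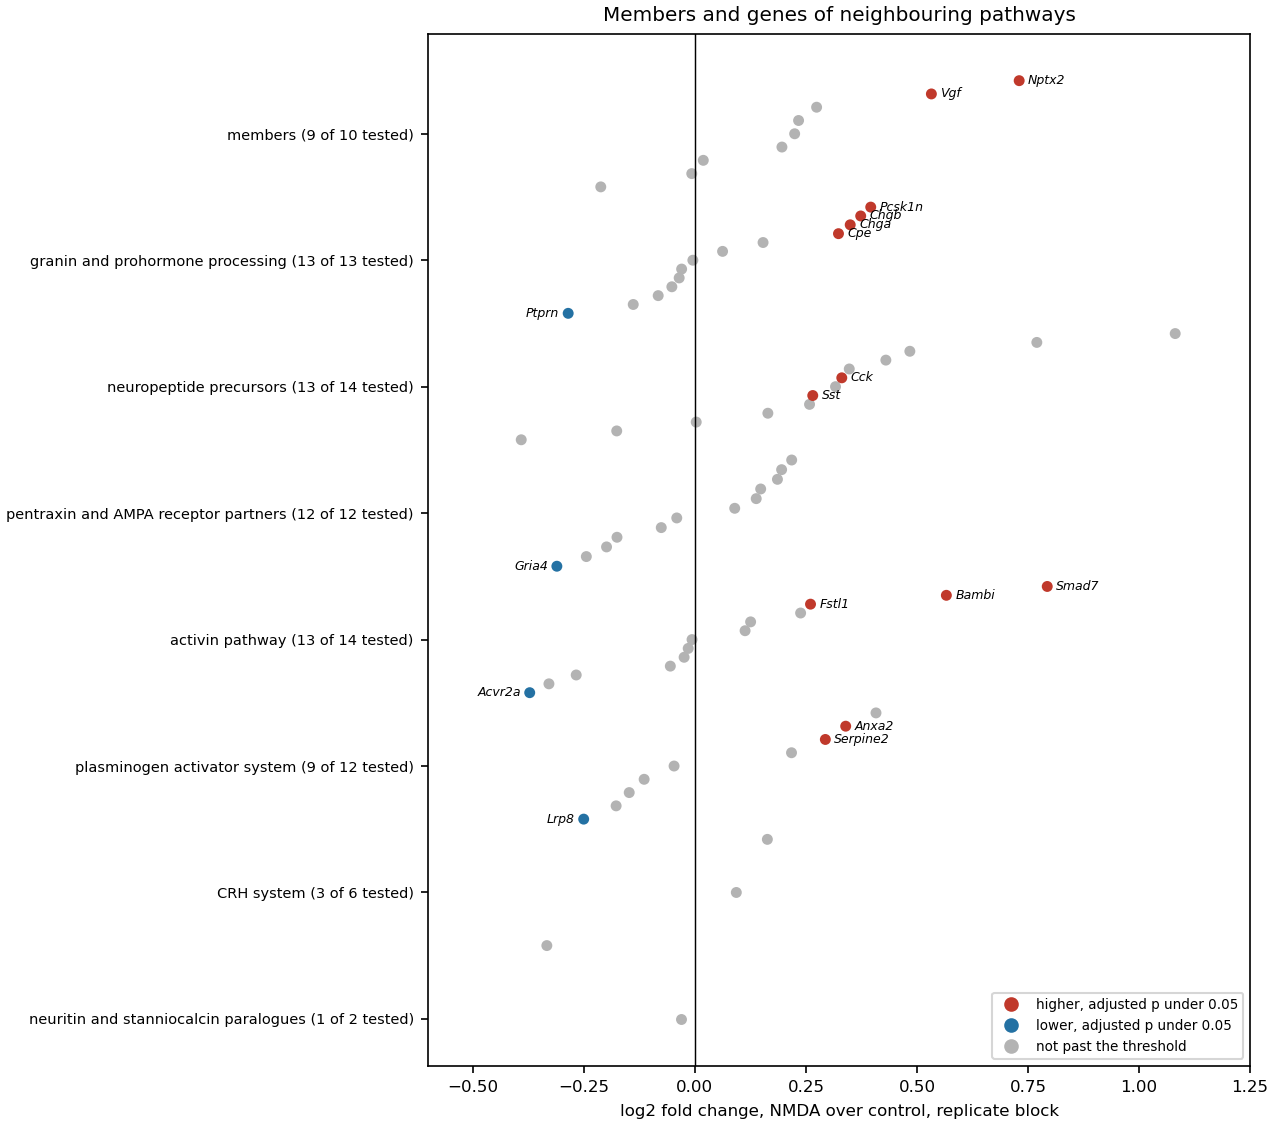
Log2 fold change with the replicate block, NMDA over control, of the tested members and of the tested companion genes in each list; red and blue points are genes higher and lower at an adjusted p under 0.05, grey points did not pass. Smad7 (0.79) and Nptx2 (0.73) are the called genes farthest to the right, and Acvr2a (-0.37) the one farthest to the left.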

How the data were processed

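Values are raw read counts per gene, deposited by the authors, and the submitters' processing notes name HTSeq, TopHat and Trimmomatic together with GRCm38.p6 and mm10. Versions, annotation and strand setting: not given in the sources used here. Per the labels' protocols, RNA with an integrity number of at least 8 went into stranded mRNA libraries with single-end adapters. Counts were tested with edgeR 4.0.16 in R 4.3.3: default filter (minimum count 10, minimum total 15; 14642 genes), TMM scaling, robust quasi-likelihood F tests on group alone, and Benjamini-Hochberg adjustment over all genes (threshold 0.05). CPM values, and RPKM values on merged exon lengths of GENCODE M21, were computed here from the deposited counts. Standard errors were derived from the fold change and its F statistic, and intervals from them. Count depth limits the precision of low genes, such as Crh.

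The members and lists were chosen with earlier results of these data known. Named are all members, in each companion list the genes past the threshold and the 2 with the smallest unpaired p, and the 3 genes most correlated with each called member. Replicate numbers were checked for pairing: after subtracting group means, same-numbered libraries had correlations of 0.539, 0.384 and 0.487, and the other combinations lay from -0.407 to -0.0231. All 3 exceeded 0.1, so blocked values (2 residual degrees of freedom, against 4) stand beside the unpaired ones. The pairing comes from the data, since no label explains the numbers. With group means subtracted, values above 0 for same numbers push the other combinations below 0, so those are no separate evidence. Alternatives were DESeq2 1.42.0, limma-voom (limma 3.58.1), other scalings and filters, and libraries left out. Size factors and GC and length offsets (mgcv 1.9.3) in the blocked fit were added after seeing the data. Scripts were tested on simulated data, and figures drawn with matplotlib 3.10.9.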

Additional observations from a re-analysis of the deposited data

How the results depend on the processing

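The count of called members was 0 under every unpaired alternative run, libraries left out included. It was 2 with the replicate block in edgeR, in DESeq2 and with DESeq2 size factors, 3 when offsets for GC and length joined the block, and 2 to 6 with the block and 1 replicate number left out. Called companion genes numbered 0 unpaired (0 to 1 with a library left out), 1 (Smad7) in DESeq2 and without a low-count filter, 15 with the block, 10 with the block in DESeq2, 17 with the block and size factors, 15 with the block and offsets, and 8 to 20 with the block and a number left out. Over all genes 63 were called unpaired (20 to 146 with a library left out), 305 by DESeq2 (148 higher, 157 lower), 260 without a filter (130 each way), 2051 with the block, 966 with the block in DESeq2, 2077 with the block and size factors, 2075 with the block and offsets, and 1018 to 2707 with the block and a number left out; 2707 came without replicate 1 and 1463 without replicate 3. The cause of these differences was not tested; the biological coefficient of variation was 7.06% with and 13% without the block.

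Nptx1 stood near 0 and changed sign with the block in DESeq2 (0.0059), with size factors (0.0031) and with offsets (0.016). With 1 library left out, the unpaired log2 fold change spanned -0.12 to 0.11 for Nptx1, -0.27 to 0.27 for Inhba, -0.085 (without NMDA replicate 2) to 0.59 for Pcsk1, -0.18 to 0.58 for Crhr2 and -0.19 to 0.087 for Stc2. With the block and a number left out it spanned -0.10 to 0.16 for Nptx1, -0.34 to 0.33 for Inhba, -0.047 to 0.69 for Pcsk1, -0.20 to 0.42 for Crhr2 and -0.21 to 0.13 for Stc2, with Stc2 at 0.012 without replicate 1. The ratio of Inhba to Inhbb spanned -0.35 to 0.22 and that of Pcsk1 to Pcsk2 -0.020 (without NMDA replicate 2) to 0.53, while that of Nptx2 to Nptx1 kept its sign, from 0.57 to 0.88, and that of Stc1 to Stc2 ran from -0.33 without control replicate 1 to -0.03 without control replicate 2. Unpaired, without control replicate 3 the value was 0.86 for Vgf, 0.36 for Scg2, 0.34 for Nrn1 and 0.42 for Plat; the lowest were 0.30 for Vgf and 0.09 for Plat without control replicate 1, and 0.13 for Scg2 and 0.10 for Nrn1 without control replicate 2. Nptx2 ran from 0.61 to 0.83 and Stc1 from -0.28 to -0.13, neither past the threshold. With the pairing, an exact sign-flip test of 3 differences cannot go below 0.25. Crh, at 1 to 9 reads a library, could be fitted only without the filter (1.37).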

Other observations

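The genes whose log2 CPM over the 6 libraries ran most like that of Vgf, among 12711 genes averaging 1 or more on the log2 CPM scale, were Taf3 (Pearson r 0.997), a subunit of the general transcription factor TFIID, Pcdh8 (0.996), an activity-regulated protocadherin also called arcadlin, and Retreg2 (0.992). Of these Pcdh8 was higher with the block (log2 fold change 0.45, edgeR adjusted p = 0.00125), and Taf3 (0.22) and Retreg2 (0.15) did not pass. Those most like Nptx2 were Utp14b (0.999), Mb21d2 (0.994) and the imprinted gene Mest (0.992). Utp14b (0.33) and Mest (0.46) were higher with the block (edgeR adjusted p = 0.0189 and 0.000704), and Mb21d2 (0.14) was not called. These correlations describe 6 libraries that share 2 groups and 3 replicate numbers, and the closest genes were picked from all 12711.

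Among the members themselves, Scg2 and Nrn1 ran most alike over the 6 libraries (Pearson r 0.916, a description), and Nptx2 and Stc1 ran most opposite (-0.799). Vgf and Nptx2, the 2 members called with the block, had an r of 0.783.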
